A study of Mus musculus with 157 samples.

Results

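The mRNAs of heavy polysomes were compared between LPS-activated mouse splenic B cells that received the ATM inhibitor KU55933 followed by etoposide (LPS+ET+KU) and cells that had LPS alone (LPS). Libraries were chosen by their column names: those of fractions 11 to 16 that lack the word etoposide made up the LPS group, and those that name KU55933 made up the LPS+ET+KU group. This gave 48 of the 157 libraries of the series, 24 per group. They came from 8 of its 12 gradients, 4 per group, and a gradient is the set of fractions of 1 treatment within 1 of 4 library pools named LUL15, LUL16, LUL17 and LUL18.

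The B cells were isolated from spleens of C57BL/6Babr mice, and every culture was activated with LPS at 10 µg/ml and exposed to cycloheximide before lysis. LPS cells had 48 h of LPS and neither drug. LPS+ET+KU cells had 47 h of LPS, then KU55933 at 10 µM for 1 h, then etoposide at 20 µM for 4 h. LPS+ET cells, used as a reference, had 48 h of LPS and 4 h of the same etoposide dose without the inhibitor. The labels do not say whether LPS cells were kept in culture for as long as the etoposide-treated cells. The inhibitor was given only together with etoposide, so the effects of both agents cannot be told apart in the comparison with LPS. The study describes its replicates as biological, and the labels do not tie single gradients to animals or cultures.

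Etoposide traps type II topoisomerases on DNA and leaves double-strand breaks. Breaks activate the kinase ATM, which among other substrates acts on p53 and on checkpoint kinases, and p53 in turn switches on genes of cell cycle arrest, cell death and repair. An mRNA that carries many ribosomes sediments deep into a sucrose gradient, so heavy polysomes hold the mRNAs that are most heavily loaded. The level of an mRNA in heavy polysomes reflects both how much of it a cell holds and how much of that is loaded, and these cannot be told apart in this measure alone. Each library is also scaled to the same total, so a change in the whole amount of heavy polysomes cannot be seen. The paper reports a global loss of polysome assembly after etoposide. Higher and lower here mean relative to the other mRNAs of the heavy fractions.

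The 48 libraries held 32306 to 4170688 counts (median 973496.5), and per gradient the heavy fractions summed to 5127067 to 10159252 counts in LPS and 3844462 to 8453199 in LPS+ET+KU. Fraction 16 held 699623 to 1088275 counts in the LPS gradients and 125032 to 411369 in the LPS+ET+KU gradients. The shallowest libraries were fraction 12 of the LPS gradient of pool LUL17, with 32306 counts, and fraction 15 of the LPS+ET+KU gradient of pool LUL15, with 60143. Levels are given as CPM, counts scaled to the same total in every library, averaged over the 6 heavy fractions of a gradient. The 8 B cell marker genes summed to 26908 to 38180 CPM in LPS and 29633 to 53364 in LPS+ET+KU, with Pax5 at 1.53 CPM in LPS. The 9 T cell markers in the table summed to 123 to 159 CPM and 111 to 367 CPM, nearly all of it Lck (130 ± 18.7 and 175 ± 122 CPM), while Cd3e stood at 0.0987 and 0.0397 CPM. The 11 myeloid markers summed to 249 to 322 and 262 to 395 CPM, and 5 natural killer and erythroid markers to 0.139 to 2.05 and 0.715 to 5.53 CPM. The highest T cell sum, 367 CPM, was that of the LPS+ET+KU gradient of pool LUL16. This pool had the smallest difference of the 4 pools in 627 (34.9%) of the genes called between the groups. It had the largest in 553, and both counts were the highest of any pool. Its median difference in the called direction was 1.04, below pools LUL15 (1.08) and LUL17 (1.14) but above pool LUL18, which had the lowest. Pool LUL16 stood apart from the other 3 pools in several gene groups, and medians of most lists are given per pool.

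In heavy polysomes, 1794 of 11235 tested genes (16.0%) differed between LPS+ET+KU and LPS, with 1152 higher (10.3%) and 642 lower (5.71%). A gene was called at an adjusted p under 0.01 in limma's test on log2(CPM + 1) with a term for the pool, and all log2 differences are on that scale, which understates the change of scarce mRNAs. In these bulk samples fewer cells of a kind and less RNA per cell cannot be told apart. The called differences had a median size of 1.08 on the log2 scale, and 1031 of them exceeded 1. The groups did not overlap in 2646 genes (23.6%), among them 1440 of the called genes, and 1779 called genes moved the same way in all 4 pools. The split between higher and lower depended on scaling. The median difference of all tested genes was 0.15, and with TMM scaling, which centres most genes on no change, it was -0.02, with 792 genes called higher (42.4% of the calls, against 64.2%) and 1075 lower. None of the 1794 called genes changed sign under TMM, and 767 of the rises and 641 of the falls were still called. Differences of gene groups are therefore also stated relative to the median of all genes. The gene lists and their members were chosen with earlier results of these data known. Their shares of called genes therefore describe the lists and are not independent evidence for them. Of the 1794 genes, 830 kept the call without each of the 8 gradients in turn (558 higher and 272 lower), and 723 of these were also called with TMM scaling and by edgeR on the summed counts.

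**Figure D1:**
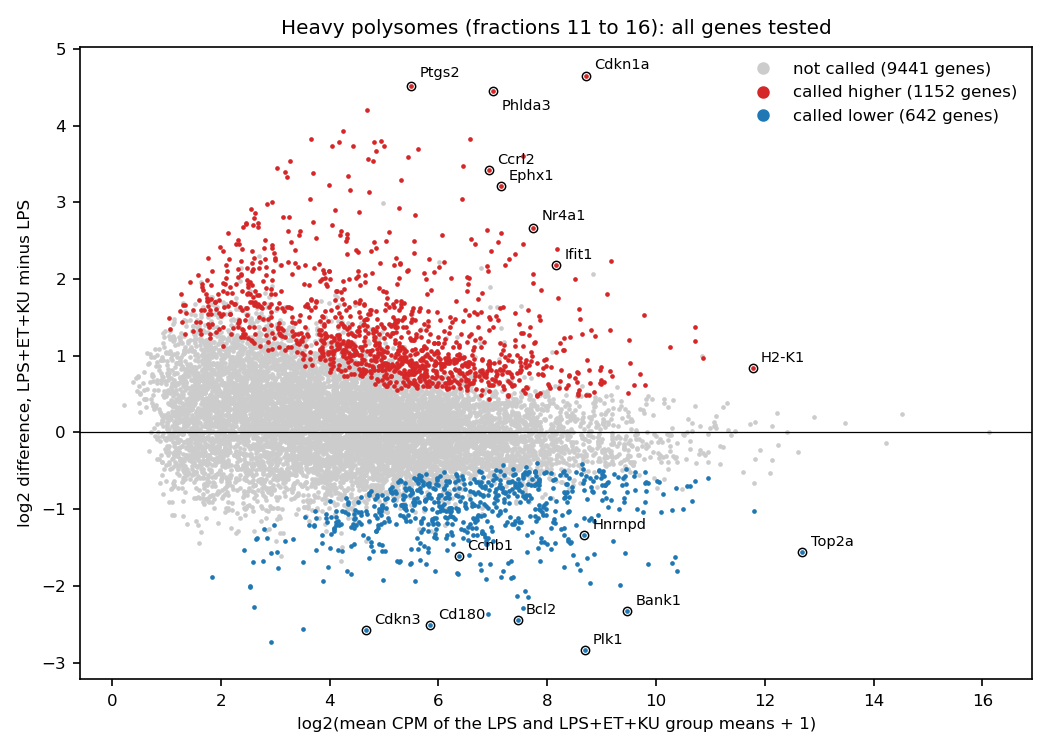
Each point is 1 of the 11235 tested genes, with its mean level in heavy polysomes on the x axis (log2 CPM + 1) and the log2 difference between LPS+ET+KU and LPS on the y axis. Red and blue mark the 1152 genes called higher and the 642 called lower, and the circled genes, such as Cdkn1a at 4.65 and Plk1 at -2.84, are described in the text.

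Cdkn1a, which encodes the cyclin-dependent kinase inhibitor p21, had the largest log2 difference of the 10 largest rises. In pools LUL15 to LUL18 it stood at 26.7, 17.4, 56.1 and 29.3 CPM in LPS and at 820, 463, 901 and 1016 CPM in LPS+ET+KU. All 4 treated gradients lay far above all LPS gradients, and the log2 difference was 4.65 ± 0.18 (SE, adjusted p = 2.1e-07, limma), 25.1-fold on the CPM + 1 scale, as for all folds given here, with means of 32.4 ± 16.6 and 800 ± 239 CPM (SD, n = 4). The gene lies at chr17:29090978-29100721 (GRCm38, plus strand), and its counted poly(A) site is in the 3′ UTR. Phlda3, a p53-induced repressor of Akt signalling at chr1:135766118-135769135, rose 21.8-fold, from 9.73, 6.8, 21.4 and 5.58 CPM to 351, 121, 255 and 255 CPM (adjusted p = 1.7e-06). Ptgs2, the inducible cyclooxygenase at chr1:150100123-150108009, rose from 2.7 ± 1.25 to 85.5 ± 34.9 CPM (22.9-fold on the CPM + 1 scale, adjusted p = 1.4e-06) and is also counted in the 3′ UTR. In all 3 genes every treated gradient lay above every LPS gradient, as the rule for choosing the largest rises required.

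The other 7 of the 10 largest rises also started from low levels. Enc1 rose from 1.66 ± 0.299 to 47.8 ± 6.86 CPM, Rhod from 2.79 ± 0.785 to 51.3 ± 10.1, and Fosl2, an AP-1 transcription factor, from 1.36 ± 0.496 to 34.7 ± 6 CPM. Rarg, a retinoic acid receptor, rose from 2.98 ± 2.3 to 56.6 ± 27.2 CPM, and Prrg4 from 8.27 ± 2.43 to 180 ± 116. The counted site of Prrg4 lies 3713 bases past its annotated end. Sulf2 (3 to 5 counts per LPS gradient) and Zfp365 (3 to 10) rested on few counts in LPS, and their rises from 0.532 ± 0.275 to 22.8 ± 10.2 CPM and from 1.03 ± 0.498 to 33.2 ± 19.5 CPM depend on the 1 CPM added before the logarithm. In 5 of these genes the LPS+ET+KU gradient of pool LUL16 was the lowest of its group, at 20.5 CPM for Prrg4, 36.9 for Rhod, 16.1 for Rarg, 7.99 for Sulf2 and 6.56 for Zfp365.

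The 10 largest falls included regulators of B lymphocytes and of division. Plk1, the mitotic polo-like kinase at chr7:122159436-122169874, fell from 725, 819, 689 and 610 CPM to 94.6, 228, 59.5 and 70.6 CPM. The highest treated gradient stayed below the lowest LPS gradient, and the log2 difference was -2.84 ± 0.28 (SE, adjusted p = 4.1e-05). Bcl2, the founding anti-apoptotic member of its family at chr1:106538177-106714273, fell from 340, 293, 281 and 254 CPM to 58.8, 95.9, 35.4 and 36.9 CPM (log2 difference -2.45 ± 0.23). Bank1, a B cell scaffold protein gene, went from 1157 ± 126 to 262 ± 165 CPM, Ikzf1, which encodes the lymphoid transcription factor Ikaros, from 200 ± 19 to 38.6 ± 8.48, and Bcl11a, a zinc finger factor of B cell development, from 312 ± 34 to 63.3 ± 9.69 CPM. Cd180, a Toll-like receptor homologue that modulates the LPS response of B cells, fell from 96.5 ± 8.32 to 16.5 ± 5.01 CPM, and its counted site lies in an intron. Cdkn3, a phosphatase that acts on cyclin-dependent kinases, fell from 42.6 ± 12.3 to 6.12 ± 0.368 CPM. All these groups were fully separate, as the rule for choosing the largest falls required. The last 3 falls were in scarce mRNAs: Ccbp2, a chemokine-scavenging receptor (12.2 ± 5.88 to 0.979 ± 0.853 CPM, with 2 to 17 counts per treated gradient), Serpinb1a, a serpin protease inhibitor (9.15 ± 2.66 to 1.07 ± 0.445), and Hbb-bh1, a beta-globin locus gene (18 ± 5.38 to 2.82 ± 2.96). The call of Hbb-bh1 was lost without the LPS gradient of pool LUL18 or the LPS+ET+KU gradient of pool LUL17 or LUL18 (adjusted p up to 0.013).

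**Figure D2:**
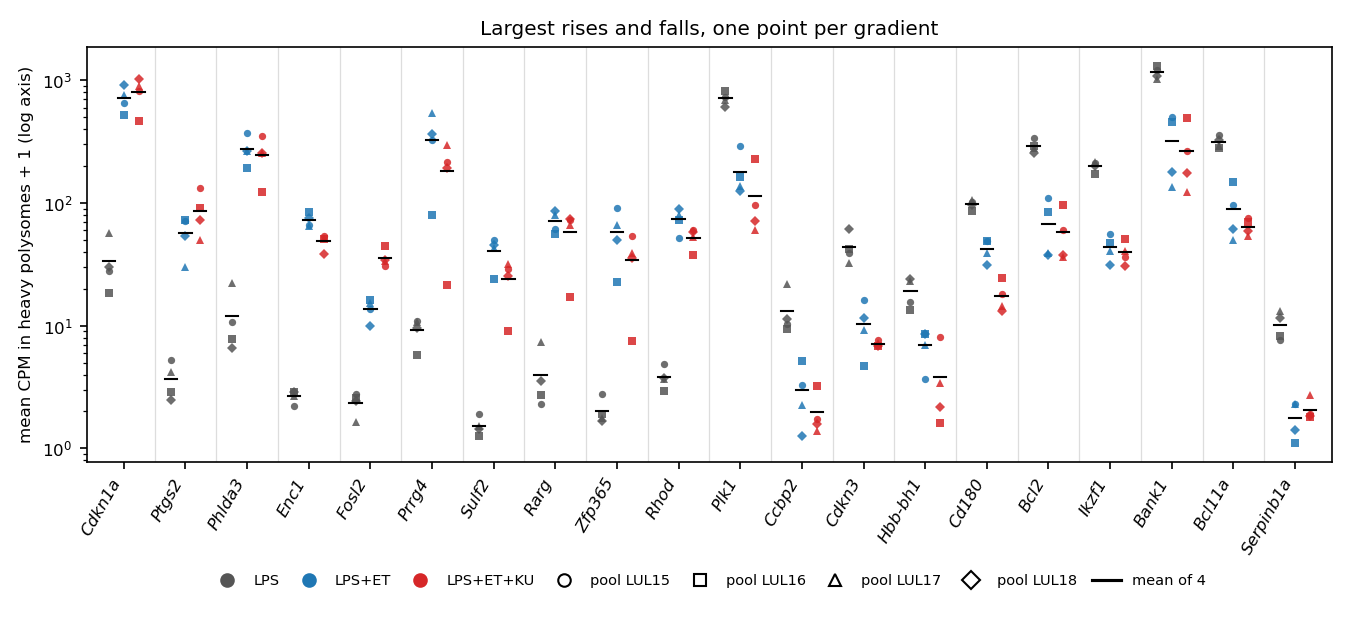
CPM + 1 in heavy polysomes on a log axis for the 10 largest rises (left) and 10 largest falls (right), with 1 point per gradient, a symbol per pool, a colour per treatment and a bar at the mean of 4. In every gene the 4 LPS+ET+KU points are separate from the 4 LPS points, as the rule for choosing these genes required, and the LPS+ET points are shown for reference.

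Of 36 listed p53 targets, 32 were tested, 22 were called higher and none lower (1 lower at an unadjusted p under 0.05, and none in edgeR on summed counts), against 10.3% called higher among all genes. Of the rest, Ddb2 and Gls2 were below the count filter and Pidd1 and Tigar were not matched in the table. The median log2 difference was 1.82, which is 1.67 above that of all genes, and per pool it was 1.97, 1.32, 1.70 and 1.89. Among arrest and feedback genes 9 of 12 rose. Besides Cdkn1a these included Mdm2, the ubiquitin ligase that limits p53 (67.8 to 223 CPM), the stress-induced Sesn2 (41.7 to 230) and Zmat3, an RNA-binding zinc finger protein gene (37.7 to 245). Of 13 cell death genes 7 rose, among them the BH3-only factors Pmaip1 (54.1 ± 19.5 to 321 ± 152 CPM, adjusted p = 1.3e-06) and Bbc3 (11.8 to 61.2), the death receptors Fas (5.33 to 32.8) and Tnfrsf10b (6.43 to 70.6), and Bax (119 to 243). Of 7 genes of repair, redox and metabolism 6 rose, such as Ephx1, an epoxide hydrolase (26.1 ± 8.45 to 255 ± 102 CPM), and Polk, a translesion polymerase (6.49 to 37.4). Aen, Plk3, Sesn1, Casp1, Gpx1, Apaf1, Eda2r, Ei24, Perp and Gadd45a were not called, with log2 differences from -0.31 for Casp1 to 1.30 for Perp.

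In the mitosis list, 24 of 44 tested genes fell and 1 rose, against 5.71% called lower among all genes, and 46 genes were listed. The median log2 difference was -1.12, or -1.27 relative to all genes, and per pool it was -1.06, -0.56, -1.36 and -1.47. Kinases, cyclins and their regulators fell in 8 of 14 cases: beside Plk1 and Cdkn3 these were Aurka (222 to 67.1 CPM), Cdk1 (667 to 257), Ccnb1, which encodes cyclin B1 (124 ± 9.78 to 40.7 ± 9.63, adjusted p = 3.4e-05), Ccnb2 (138 to 62.8), Ccna2 (144 to 60.8) and the checkpoint kinase gene Bub1b (167 to 66.9). Among genes of the spindle, kinetochore and cytokinesis 14 of 25 fell, including Tpx2 (473 to 207 CPM), Incenp (93.1 to 27.9) and Cenpf (65.6 to 23). Of the exit machinery, Ube2c (128 to 35.2 CPM) and Espl1, which encodes separase (347 to 143), fell. The gene that rose was Psrc1, which encodes a spindle protein and is also known as a p53 target, from 7.37 ± 1.94 to 44.8 ± 18.1 CPM (adjusted p = 1.3e-05). Pttg1, which encodes securin, was not called, at 224 and 339 CPM.

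Mitotic promoters often carry the cell cycle genes homology region, a short element through which repressor complexes silence them outside G2 and M phase. It was searched as TTTGAA on both strands in RefSeq promoters of GRCm38, a window of fixed length around each start site. The letters occurred in 14.0% of the 8061 tested genes with a promoter entry. In the mitosis list they occurred in 26 of 38 promoters, namely in 16 of 19 with an entry among genes that fell and in 10 of 17 among genes that were not called. A match describes the letters only. Windows of 30 bases, with the element in capitals, are shown because these genes fell, and they are read 5′ to 3′ on the strand that holds the element. They lie at chr7:122159453-122159482 for Plk1 (plus strand, element starting 30 bases after the start site), chr10:69352910-69352939 for Cdk1 (minus strand, 15 bases before it), chr2:164769888-164769917 for Ube2c (read on the strand opposite to the gene, 29 bases before it) and chr14:46760418-46760447 for Cdkn3 (opposite strand, 111 bases before it).
Plk1: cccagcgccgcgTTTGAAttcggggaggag
Cdk1: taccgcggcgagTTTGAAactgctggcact
Ube2c: ccgccgcccgcgTTTGAAttgcaaccctcc
Cdkn3: tcagaggaagtcTTTGAAagacgcgcggaa

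Few DNA replication genes were called. Of 39 tested of 42 listed, none rose (3 at an unadjusted p under 0.05, none in edgeR) and 3 fell (7.69%, against 5.71% of all genes), with 5 lower under TMM scaling and 7 in edgeR, and the median log2 difference was -0.06. Per pool it was -0.08, 0.25, -0.20 and -0.29. The fallers were Pola1, the catalytic subunit of DNA polymerase alpha (253 ± 67.3 to 76.3 ± 41 CPM, adjusted p = 1.9e-04), Gmnn, the replication licensing inhibitor geminin (89.7 ± 21 to 51.5 ± 13.9), and Pold2, a subunit of DNA polymerase delta (46.5 ± 10 to 30 ± 6.9). The calls of Gmnn and Pold2 were weak. That of Gmnn was lost without the LPS gradient of pool LUL15 or LUL18 or the LPS+ET+KU gradient of pool LUL15 (adjusted p up to 0.011), and that of Pold2 without either gradient of pools LUL15, LUL17 or LUL18 (up to 0.024). Both calls were also lost without the pool term, and that of Gmnn in edgeR on summed counts (adjusted p = 0.0121). The helicase subunits Mcm2 (526 and 637 CPM) and Mcm7 (1684 and 1493) and the clamp Pcna (274 and 275) were not called. Among 45 tested genes of damage signalling and break repair, of 47 listed, 1 rose and 3 fell (7 in edgeR), a share of 8.89% against 16.0% of all genes, with a median of 0.01 that turned to -0.17 with TMM scaling and to -0.28 in edgeR. Rad52, a recombination protein gene, rose from 7.22 ± 1.69 to 20.6 ± 0.74 CPM (adjusted p = 3.4e-04). Top2a, which encodes topoisomerase II alpha, the main target of etoposide in dividing cells, fell from 9763, 11525, 8272 and 8914 CPM to 3018, 6666, 2486 and 2164 CPM (log2 difference -1.56 ± 0.26, adjusted p = 0.00106). Its level in pool LUL16 stayed well above the other treated gradients and still below the lowest LPS gradient. The mean log2 difference of Top2a lay between -0.47 and -0.96 in fractions 11 to 14. It was -2.06 and -2.47 in fractions 15 and 16, where means fell from 20323 to 5009 and from 24614 to 5880 CPM. Those fractions held 60143 to 593423 and 125032 to 411369 counts per LPS+ET+KU library. Pola1 also fell most in fractions 14 to 16 (-1.94, -2.42 and -2.18). Rif1, which protects broken ends from resection, fell from 51.5 ± 11.6 to 27.8 ± 7.04 CPM, and Mre11a from 33.1 to 19.3. The kinase mRNAs Atm (104 and 122 CPM), Atr (29.9 and 29) and Chek1 (43.8 and 53.8) were not called.

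Interferon-response genes split into a few strong rises and a majority without a call. Of 40 listed, 36 were tested, 7 rose and 1 fell (against 10.3% and 5.71% of all genes), and the median was 0.31, only 0.16 above all genes. Per pool the median was 0.47, -0.13, 0.54 and 0.30, so it was negative in pool LUL16. Ifit1, an antiviral RNA-binding protein gene at chr19:34640870-34650008, stood at 97.4, 88.2, 112 and 96.4 CPM in LPS and 583, 246, 549 and 509 CPM in LPS+ET+KU. The LPS values were tight and the treated values higher by 4.52-fold, with the smallest rise in pool LUL16 (log2 difference 2.18 ± 0.24, adjusted p = 8.2e-05). Rsad2, which encodes the antiviral enzyme viperin, rose from 20.8, 17.2, 23.1 and 23.8 CPM to 97, 54.1, 123 and 116 CPM (2.09 ± 0.17). Cxcl10, a chemokine induced by interferon, was nearly absent in LPS at 2.27, 1.4, 2.08 and 1.43 CPM and reached 42.1, 4.75, 57.4 and 41.6 CPM (3.34 ± 0.49). Oasl1 (93.1 to 196 CPM), Usp18 (101 to 213), Irf9 (166 to 321) and Parp14 (48.3 ± 6.61 to 120 ± 22.7) rose as well. The call of Parp14 was lost in edgeR on summed counts (adjusted p = 0.18). Tmem173, which encodes the adaptor STING, fell from 496 to 339 CPM. The counted site of Cxcl10 also lies in an exon of Art3 on the opposite strand.

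The interferon-stimulated response element, the binding site of interferon-activated factors, was searched in the same promoters as GAAA, any 2 bases and GAAA on both strands. It occurred in 3.83% of the tested genes with an entry and in 16 of 29 listed interferon-response promoters. Within the list it was present in 3 of 5 genes with an entry that rose and in 11 of 20 that were not called. The promoters of the 3 strongest rises are shown with the element in capitals, at chr19:34640794-34640823 for Ifit1 (85 bases before the start site, read on the strand opposite to the gene), chr12:26456553-26456582 for Rsad2 (120 before, opposite strand) and chr5:92349083-92349112 for Cxcl10 (213 before, gene strand). The Ifit1 promoter holds another match 104 bases before the start site.
Ifit1: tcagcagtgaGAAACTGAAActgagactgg
Rsad2: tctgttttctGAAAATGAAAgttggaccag
Cxcl10: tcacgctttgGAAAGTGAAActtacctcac

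Of 25 tested NF-κB and inflammatory genes, of 26 listed, 8 rose (against 10.3% of all genes, and 5 with TMM scaling and 6 in edgeR) and none fell (1 at an unadjusted p under 0.05, 1 with TMM, none in edgeR), and the median was 0.62. Per pool it was 0.57, 0.75, 0.51 and 0.62. Ccrl2, a non-signalling chemokine receptor at chr9:111054834-111057269, rose 10.7-fold, from 17.1, 14.5, 26.7 and 19.4 CPM to 265, 133, 265 and 221 CPM (log2 difference 3.42 ± 0.21, adjusted p = 1.8e-06). The chemokine Ccl5 rose from 11.6 ± 1.36 to 46.6 ± 14.5 CPM, and Nfkbiz, a nuclear IκB protein gene, from 52.7 ± 9.54 to 155 ± 23.8. Nfkbiz lost its call in edgeR on summed counts (adjusted p = 0.0227). The feedback inhibitors rose in 4 of 8 cases, among them Nfkbia (698 to 1073 CPM) and Nfkbie (21.8 to 43.7), but in 1 with TMM scaling and in 2 in edgeR. Of the 5 subunits Nfkb2 rose (275 to 481), a call lost in edgeR (adjusted p = 0.0332). The searched κB letters GGGANTTCC occurred in 3.01% of tested promoters, in 2 of 6 promoters of the list's genes that rose and in 4 of 12 of those not called. Of the 10 tested myeloid markers, 3 rose (against 10.3% of all genes): Cd14, the LPS co-receptor (0.51 to 15.7 CPM, and 2.27 in LPS+ET), Itgam (7.07 to 18.8) and Csf1r (6.87 to 14.1). Lyz2 stood at 22.7 and 26.3 CPM and Cst3 at 103 and 130, while Mpeg1 stood at 96.8 and 62.6 and Ly6c2 at 38.8 and 36.1. With TMM scaling 2 of these markers were called higher and 1 lower, and in edgeR 3 and 1. The part of cells with these markers in the inflammatory and interferon values was not tested.

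Immediate early genes rose in 9 of 16 tested cases and fell in 2 (against 10.3% and 5.71% of all genes), with a median of 1.33, and the medians taken within single pools were 1.18, 1.08, 1.27 and 1.10. The list held 18 genes. Nr4a1, an orphan nuclear receptor, went from 67.9, 67, 28.9 and 64.8 CPM to 471, 426, 185 and 393 CPM (2.66 ± 0.13, adjusted p = 4.2e-07). The pool that was lowest in LPS was also lowest after treatment, and the change was of similar size in all 4 pools. Jun, an AP-1 subunit, rose from 41.4 ± 8.78 to 194 ± 59.7 CPM and Junb from 202 to 954. Atf3 (40.7 to 106 CPM), Ier3 (7.8 to 40.3) and Ier2 (20.6 to 43.8) rose too, while Fos (0.537 to 5.88) and Fosb (0.117 to 2.61) did so from levels under 1 CPM. Myc, which encodes a growth-promoting transcription factor, fell from 42.6 to 15.5 CPM, and Klf2, which maintains lymphocyte quiescence, from 180 to 100. In the integrated stress response list, 6 of 34 tested genes rose and none fell (0 at an unadjusted p under 0.05, none in edgeR), so that 17.6% were called against 16.0% of all genes, 4 rose with TMM scaling and 5 in edgeR, with a median of 0.28, or 0.14 relative to all genes, and 35 genes were listed. Ppp1r15a, the stress-induced subunit of the phosphatase that acts on eIF2, rose from 22.5 ± 4.52 to 104 ± 22.2 CPM, at a counted site shared with an exon of Tulp2 on the other strand. Cebpb, a transcription factor, rose from 28.7 ± 8.24 to 119 ± 30.6 CPM. Amino acid transporters rose in 3 of 6 cases (against 10.3% of all genes), but in 1 with TMM scaling and in none in edgeR. Slc3a2, the heavy chain of several transporters, went from 640, 889, 679 and 761 CPM to 1198, 2830, 1386 and 1408 CPM, and its call was lost in edgeR on summed counts (adjusted p = 0.0225). Atf4 (762 and 1097 CPM) and Ddit3 (21.6 and 43.4) were not called.

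Of 9 tested B cell identity genes 4 fell and none rose (against 5.71% and 10.3% of all genes). In edgeR on summed counts 5 were called lower and none higher. The genes that fell were Bank1, Cd22, an inhibitory receptor (516 to 195 CPM), Ms4a1, which encodes CD20 (79.3 ± 60.8 to 31 ± 20.8), and Ebf1, a lineage factor (4.62 to 0.544). Ms4a1 varied widely between pools, with 29.5, 24.3, 125 and 139 CPM in LPS and 11.3, 16.3, 55.5 and 40.9 in LPS+ET+KU, so the groups overlapped although the treated value was lower in every pool. Cd79b (779 and 799 CPM) was not called. Among 10 class II genes, Ciita, the master regulator of this family, fell from 103 ± 14.6 to 46.6 ± 18.9 CPM and H2-Ob rose from 130 to 229, a call lost with TMM scaling, whereas the abundant H2-Eb1 (19854 and 18430 CPM), H2-Ab1 (10670 and 12119) and Cd74 (7127 and 8199) were not called. Over the whole list of 19 tested genes, of 20, 5 fell and 1 rose (against 5.71% and 10.3% of all genes), with 5 lower and 2 higher at an unadjusted p under 0.05, and the pool medians were -0.52, 0.26, -0.60 and -0.48, again with pool LUL16 on the other side. Of 14 tested plasma cell and immunoglobulin genes, of 20 listed, 4 rose and 1 fell (against 10.3% and 5.71% of all genes), and the pool medians were 0.19, -0.38, 0.55 and 0.49. Sdc1, which encodes the plasma cell marker CD138, rose from 7.62 ± 2.56 to 28 ± 10.1 CPM (adjusted p = 8.6e-05). Irf4, a factor needed for plasma cells, fell from 222 ± 29.5 to 153 ± 19 CPM, a call lost without the LPS gradient of pool LUL15 or LUL18 or the LPS+ET+KU gradient of pool LUL15, LUL17 or LUL18 (adjusted p up to 0.015). The constant genes Ighg1 (13.1 ± 8.45 to 31.4 ± 14.2 CPM), Ighg2c (31.6 to 72.3) and Igha (15.1 to 55.7) rose, and since they resemble other constant genes their reads may be shared. Ighm (20483 and 26382 CPM) and Igkc (66117 and 76138) were not called.

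Few ribosomal protein genes were called. Of 63 tested, of 77 listed, 1 rose and 1 fell (3.17%, against 16.0% of all genes), and the median was -0.22, or -0.37 relative to all genes. With TMM scaling 15 of the 63 fell, and in edgeR 21. The gene that rose was Rps27l, a p53-induced relative of Rps27, from 59.8 ± 5.31 to 117 ± 35.6 CPM, and this call was lost under TMM (adjusted p = 0.01). The fall of Rpl37 (136 ± 39.2 to 85.2 ± 35.8 CPM, adjusted p = 0.00971) was lost without each of the 8 gradients in turn (adjusted p 0.011 to 0.04). Among 32 translation factor genes 3 rose and 6 fell (against 10.3% and 5.71% of all genes), against 1 and 10 with TMM scaling and 1 and 9 in edgeR. Eif1, which guards start codon choice, rose from 360 ± 33.1 to 657 ± 140 CPM, and Eif3c, an eIF3 subunit, from 392 ± 80.4 to 623 ± 66.7, the latter not called in edgeR on summed counts (adjusted p = 0.118). Eif4e, the cap-binding protein gene, fell from 75.7 ± 17.6 to 44.5 ± 8.68 CPM, a call lost without the LPS gradient of pool LUL15 (adjusted p = 0.013), and Eif5a fell from 1093 to 702. Ribosome biogenesis genes fell in 7 of 30 cases and rose in 1 (against 5.71% and 10.3% of all genes). These counts were 11 and none with TMM scaling and in edgeR, and 17 and 2 at an unadjusted p under 0.05 in limma. The list had a median of -0.48 and pool medians of -0.11, -0.88, -0.43 and -0.35. Wdr43, a small-subunit processome protein gene, went from 317, 326, 325 and 310 CPM to 186, 131, 163 and 176 CPM (-0.97 ± 0.14, adjusted p = 4.4e-04). Polr1b, a subunit of RNA polymerase I, fell from 67.3 ± 20.3 to 20 ± 7.66 CPM and Nop58 from 100 ± 24.9 to 58.4 ± 21.6, while the polymerase I factor Rrn3 rose from 82.7 to 141, a call lost with TMM scaling and in edgeR (adjusted p = 0.0413 in edgeR).

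Of 19 tested cholesterol genes, of 20, 5 fell (against 5.71% of all genes) and none rose (0 at an unadjusted p under 0.05, none in edgeR). With TMM scaling 10 fell and in edgeR 11. Among the 5 were Hmgcs1 (274 to 121), Mvd (146 to 85.3), Fdps (367 ± 35.8 to 204 ± 65.6) and Nsdhl (98.9 ± 20.6 to 49.7 ± 10.5). The list median was -0.63, and the pool medians were -0.76, 0.12, -0.98 and -0.98. Of 16 tested genes of RNA granules and AU-rich element binding, of 17, 1 rose and 4 fell (against 10.3% and 5.71% of all genes). Hnrnpd, which binds AU-rich elements, fell from 487, 548, 621 and 691 CPM to 222, 295, 207 and 205 CPM (-1.34 ± 0.14, adjusted p = 6.7e-05). Caprin1 (211 ± 40.7 to 92.6 ± 14.2 CPM) and Elavl1, which encodes HuR (403 ± 57.6 to 235 ± 48.5), fell, the latter not called without the LPS+ET+KU gradient of pool LUL15 or LUL17 (adjusted p = 0.011), and Edc4, a decapping scaffold, rose from 15.1 to 39.1, a call lost with TMM scaling and in edgeR (adjusted p = 0.0719 in edgeR). Nuclear genes of the respiratory chain fell in 4 of 32 tested cases of 33 (against 5.71% of all genes), in 7 with TMM scaling and in 2 in edgeR, with a median of -0.18 and pool medians of -0.04, -0.42, 0.03 and -0.23. The calls of Atp5c1 (224 ± 59.9 to 131 ± 28.7 CPM), Ndufb8 and Atp5f1 were each lost without 5 or 6 of the 8 gradients (adjusted p up to 0.021). Of 7 mitochondrially encoded genes 2 rose (against 10.3% of all genes), mt-Nd6 (8.45 ± 3.98 to 40 ± 23.6 CPM) and mt-Co1 (20.9 ± 9.77 to 58.1 ± 21.2), with counted sites inside the coding sequence. The call of mt-Co1 was lost without 6 of the 8 gradients (adjusted p up to 0.024), and the abundant mt-Nd1, mt-Nd4 and mt-Cytb differed by 0.09 to 0.25.

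**Figure D3:**
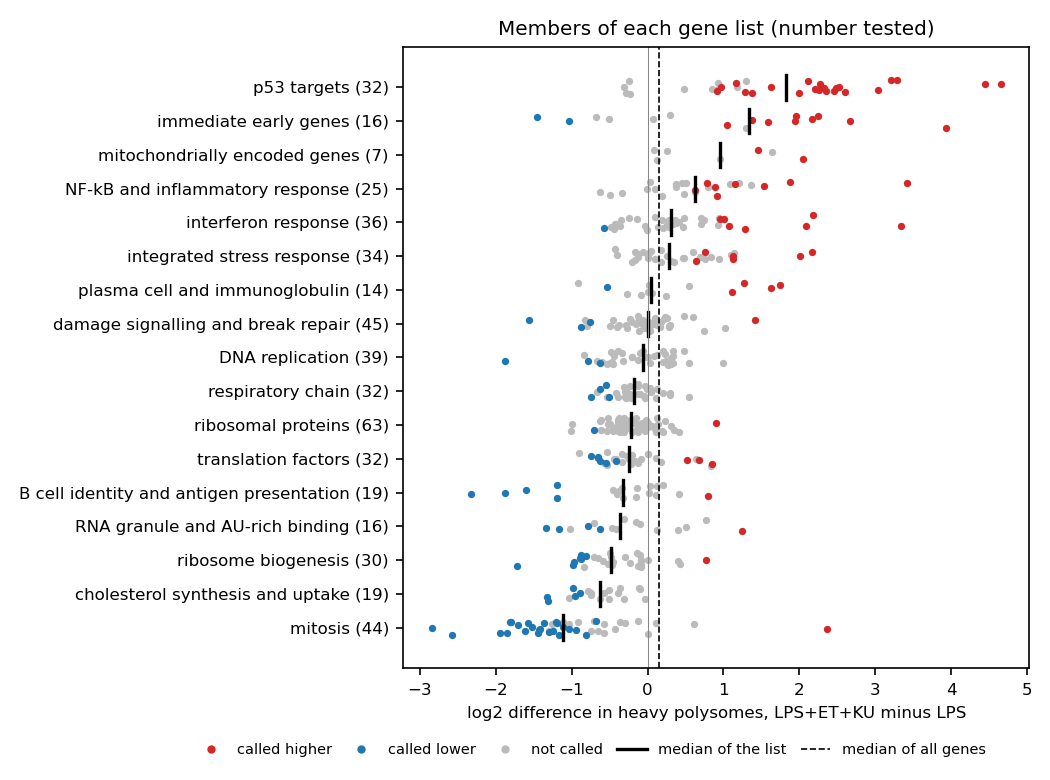
Log2 difference in heavy polysomes between LPS+ET+KU and LPS for every tested member of 17 gene lists, red where called higher, blue where called lower and grey otherwise. Black bars mark list medians, from 1.82 for p53 targets to -1.12 for mitosis, and the dashed line marks the median of all genes at 0.15.

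The study follows several mRNAs individually. Trp53, which encodes p53, stood at 308, 514, 279 and 416 CPM in LPS and 575, 639, 379 and 578 CPM in LPS+ET+KU. It was higher in all 4 pools, but the groups overlapped, and the log2 difference of 0.53 ± 0.13 only just passed the threshold (adjusted p = 0.00898). That call was lost without each gradient in turn except the LPS gradient of pool LUL16 (adjusted p up to 0.045), under TMM (0.0804) and in edgeR on summed counts (0.488). Hif1a, the hypoxia-inducible factor, rose from 349, 204, 251 and 215 CPM to 546, 389, 375 and 376 CPM (0.74 ± 0.11, adjusted p = 7.3e-04), with no overlap, and was likewise not called under TMM (0.0132) or in edgeR on summed counts (0.314). H2-K1, a class I antigen-presenting molecule, rose from 2506 ± 366 to 4523 ± 1001 CPM (adjusted p = 5.8e-04), with an adjusted p of 0.0158 in edgeR, and it may share reads with other class I genes. Gadd45a did not overlap between groups (2.95 ± 1.25 and 7.97 ± 3.2 CPM) but was not called (adjusted p = 0.0613), while edgeR on summed counts called it (0.0013). The RNA-binding protein genes Tia1 (27.6 ± 9.47 and 20.5 ± 8.28 CPM, adjusted p = 0.263) and Tial1 (73.2 ± 9.54 and 55.3 ± 10, adjusted p = 0.0191) and the cyclin gene Ccnd2 (511 ± 97.8 and 431 ± 112, adjusted p = 0.147) were not called.

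The same LPS gradients were set against etoposide without the inhibitor, where 1651 of 11235 genes (14.7%) were called, 937 higher and 714 lower. Since both comparisons share the LPS gradients, their values are given side by side. The median of the p53 targets was 1.82 with the inhibitor and 2.19 without it, that of mitosis genes -1.12 and -0.78, of immediate early genes 1.33 and 0.65, of interferon-response genes 0.31 and -0.25, of the integrated stress response 0.28 and -0.38, and of cholesterol genes -0.63 and -0.92. Among p53 targets 24 were called higher and 1 lower in LPS+ET, and among interferon-response genes 1 higher and 7 lower.

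Tested directly against LPS+ET in heavy polysomes, 106 of 11235 genes (0.943%) were called in LPS+ET+KU, 76 higher and 30 lower. The LPS+ET group was uneven in depth. In pool LUL16 its heavy fractions summed to 1948211 counts, against 6932921 to 8789663 in the other pools. Fractions 11, 12, 15 and 16 of that pool held only 33476 to 80915 counts each. In pool LUL15 fraction 16 of LPS+ET held 51226. Dropping all libraries under 100000 counts gave 294 called genes. The p53 targets had a median difference of -0.36 to LPS+ET, and 0 of the 32 tested were called higher and 0 lower. Cdkn1a differed by 0.14 (limma, adjusted p = 0.71). In LPS+ET, Trp53 stood at 512 ± 51.3 CPM and Hif1a at 385 ± 128. Neither was called against LPS+ET (0.06 and 0.17, limma, adjusted p = 0.823 and 0.409). The paper reports that the inhibitor lowered p53 mRNA in heavy polysomes after etoposide and brought the Hif1a profile back towards control. It tested profiles along the fractions, so its measure differs from the mean CPM used here. Of the 36 interferon-response genes 8 were higher. Rsad2 stood at 23.9, 13.8, 20.1 and 18.4 CPM in LPS+ET, and the log2 difference to LPS+ET+KU was 2.25 (adjusted p = 3.7e-04). Ifit1 stood at 99.1, 123, 93.6 and 70.9 CPM in LPS+ET (2.22, adjusted p = 0.00117) and Cxcl10 at 2.42, 1.78, 1.59 and 1.93 CPM (3.26, adjusted p = 0.00539). The LPS+ET values of these mRNAs overlapped with those of LPS, and all 4 LPS+ET+KU gradients lay above both groups. Ccrl2 was at 32.2, 42.9, 38.6 and 29.2 CPM in LPS+ET (2.56, adjusted p = 3.8e-04). The largest falls with the inhibitor were Cdh23, Ppp1r13l and Notch3. Notch3, a receptor of the Notch family, stood at 44.7, 37.4, 25.3 and 32.8 CPM in LPS+ET against 10.8, 1.93, 4.8 and 5.56 CPM in LPS+ET+KU, with 0 to 3 counts in the LPS gradients. Ppp1r13l, which encodes the p53-binding protein iASPP, was at 46.6 ± 17 CPM in LPS+ET against 6.72 ± 2.18 in LPS+ET+KU. Cdh23, a cadherin gene, was at 72.3, 473, 97.1 and 175 CPM in LPS+ET against 8.68, 8.45, 3.17 and 9.81 in LPS+ET+KU, at a counted site inside an intron. Sdc1 was also lower with the inhibitor (72.7 ± 23.1 against 28 ± 10.1 CPM), as were Cd180 (41 ± 8.55 against 16.5 ± 5.01) and Irf4 (240 ± 39.3 against 153 ± 19). With 1 gradient of LPS+ET left out the count fell to 2, 13 and 2 genes (pools LUL15, LUL17 and LUL18), and to 16, 3 and 4 for the same pools of LPS+ET+KU. Dropping pool LUL16 from LPS+ET raised the count to 153. Of 14 named genes called here, Rsad2 and Ccrl2 kept the call without any 1 gradient, and the other 12 lost it in 4 to 8 of 8 such fits (adjusted p up to 0.061), with no change of sign.

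**Figure D4:**
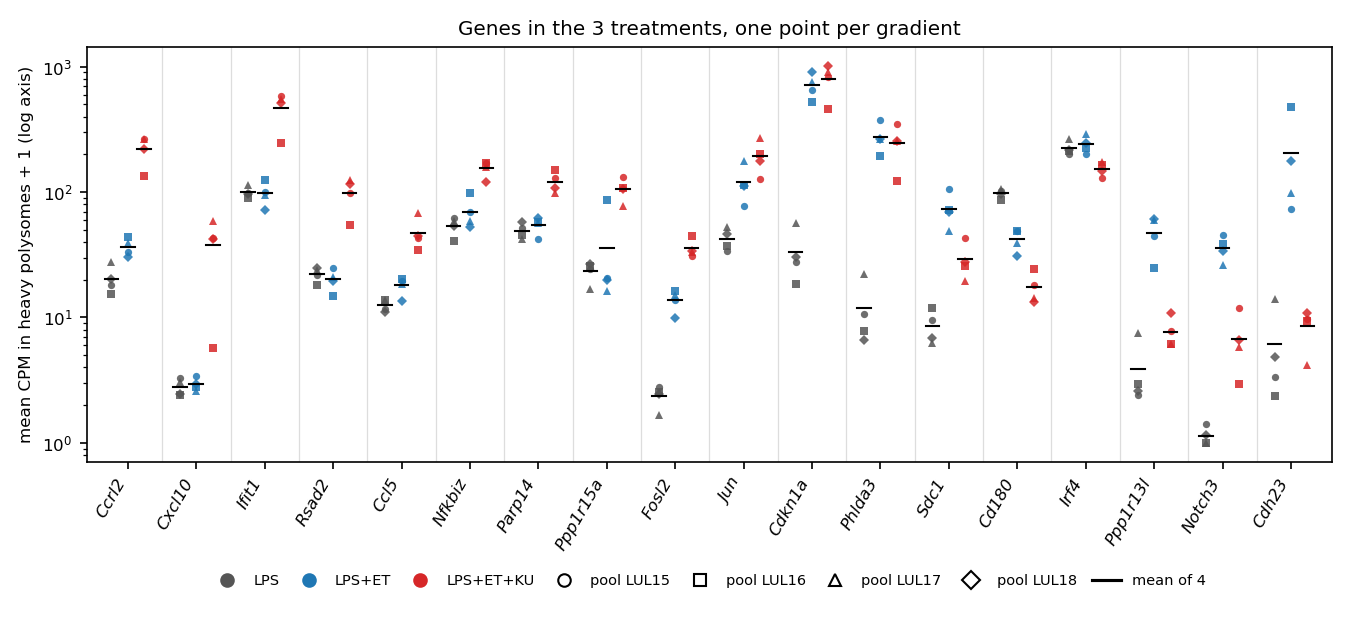
CPM + 1 in heavy polysomes on a log axis for 18 genes in all 3 treatments, with 1 point per gradient, a symbol per pool and a bar at the mean of 4. Ifit1, Rsad2 and Cxcl10 are raised in LPS+ET+KU only, Cdkn1a and Phlda3 in both etoposide groups, and Notch3 and Cdh23 mainly in LPS+ET.

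Whether the change was particular to heavy polysomes was asked by comparing it with the change in monosomes, fractions 4 to 7 of the same gradients. In monosomes 803 of 9563 genes (8.40%) were called between LPS+ET+KU and LPS. The median log2 differences in heavy polysomes and in monosomes were 1.82 and 1.33 for p53 targets, -1.12 and -0.96 for mitosis, 1.33 and 1.18 for immediate early genes, -0.63 and -0.60 for cholesterol genes, 0.31 and 0.10 for interferon-response genes and -0.24 and 0.18 for translation factors. Cdkn1a rose by 4.65 in heavy polysomes and 2.61 in monosomes, and the difference was not called (limma, adjusted p = 0.0381). Its mean log2 difference was 1.93 in fraction 4, where LPS stood at 147 ± 141 CPM. It was 3.28, 3.73 and 3.11 in fractions 5 to 7, and from 3.94 to 5.57 in the heavy fractions. The difference between both changes was called for 1 of 9432 genes (0.0106%), Gm10717, with 2034 genes at an unadjusted p under 0.05. Gm10717, a predicted gene at chr9:3025416-3033288 with 10 to 79 counts in the heavy fractions of a gradient, differed by 2.90 in heavy polysomes and by -3.57 in monosomes, a difference of 6.47. In fraction 4 it stood at 566 ± 530 CPM in LPS and 13 ± 10.3 in LPS+ET+KU, a mean log2 difference of -4.46, against -0.21, -1.84 and -0.11 in fractions 5 to 7. The LPS libraries of fraction 4 include 3 of 14724 to 42937 counts. A fit without any library under 100000 counts, which leaves out these and others, called 45 genes. The part of these 3 libraries alone in the values of Gm10717 and in the monosome value of Cdkn1a was not tested. The count was 0 without the pool term, with only the 8 compared gradients, with a pseudocount of 0.25 CPM, without a count filter and in 7 of the 8 fits that left out 1 gradient, and it was 94 with a pseudocount of 5 CPM, 173 with TMM scaling and 29 without the LPS gradient of pool LUL17. Within the heavy class, the change in fractions 14 to 16 was set against that in fractions 11 to 13, and limma called none of 11235 genes (0%), with 1149 at an unadjusted p under 0.05. With a pseudocount of 5 CPM 2 genes were called.

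**Figure D5:**
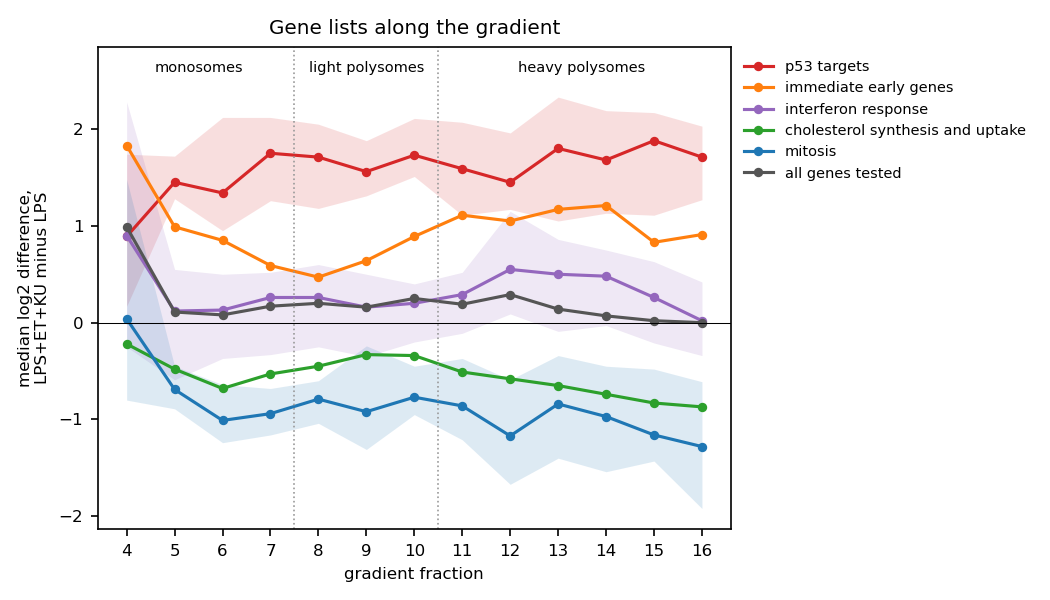
Median log2 difference between LPS+ET+KU and LPS in each gradient fraction from 4 to 16, averaged over the 4 pools, for 5 gene lists and all genes. Shaded bands run from the lowest to the highest pool for p53 targets, interferon-response and mitosis genes. In fraction 16 the medians were 1.71 for p53 targets and -1.28 for mitosis, and in fraction 5 they were 1.45 and -0.69.

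Along the gradient the p53 targets lay above all genes in every fraction from 5 to 16, with medians from 1.34 in fraction 6 to 1.88 in fraction 15. Mitosis genes lay between -0.69 in fraction 5 and -1.28 in fraction 16. Interferon-response genes had a median of 0.55 in fraction 12 and 0.02 in fraction 16, and in that fraction the pools ranged from -0.34 to 0.42. Fraction 4 showed a shift of all genes by 0.99 between the groups, with pools from 0.00 to 1.91. In fraction 12 the same shift reached 1.03 in its highest pool, and fraction 12 of the LPS gradient of pool LUL17 is the library with 32306 counts. Leaving out all libraries under 100000 counts gave 2206 called genes in heavy polysomes, 1555 higher and 651 lower.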

How the data were processed

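The authors deposited raw 3′ end counts per gene for each gradient fraction, after removing PCR duplicates by a random barcode, trimming A tracts, aligning to GRCm38 (mm10) and counting at poly(A) sites. The submitters' processing notes, which also cover other data, name TopHat2 2.0.12, HTSeq and DESeq2 1.6.3. Of the 157 count columns, 79 matched a single sample and 78, of pools LUL16 and LUL18, matched a group only. Each library was scaled to CPM, and the 6 heavy fractions (11 to 16) of a gradient were averaged. Genes with at least 10 counts in at least 4 gradients were tested with limma 3.58.1 (R 4.3.3, mean-variance trend) on log2(CPM + 1) over 12 gradients with terms for treatment and pool, and called where the p adjusted by Benjamini and Hochberg was under 0.01. Gradients were paired by their pool number. Deviations from the group means correlated at 0.1498 to 0.4143 in the 4 pairs of the same pool. In 12 pairs of different pools the correlations were -0.3952 to 0.2332 (median -0.09909), so both ranges overlapped. These values do not show whether the gradients of a pool are biological pairs. Python 3.11.15 prepared the tables. The fit was also run on simulated counts with known changes and a built-in pool effect. That simulation cannot show whether the real pools are pairs.

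Named genes were the mRNAs the study follows, the 10 largest rises and falls among called protein-coding genes with at least 5 CPM in the higher group and groups that did not overlap, the 3 called members with the smallest adjusted p of each list, and the 3 largest rises and falls of the other contrasts among called protein-coding genes with a mean of at least 10 CPM. Other list members are given by means, and some genes are not reported here. The members and lists were chosen with earlier results of these data known. Where no member of a list was called, its most abundant member was named. Alternatives were no pool term, only the compared gradients, an adjusted p under 0.05, other pseudocounts, filters and fraction ranges, TMM scaling, leaving out shallow libraries or each gradient, and edgeR 4.0.16 or DESeq2 1.42.0 on summed counts. Gene positions are those the authors gave with the counts, and counted sites were placed against GENCODE M21 on GRCm38, whose gene ends can differ.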

Additional observations from a re-analysis of the deposited data

Results flagged for a closer look

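Of 162 groups of 4 gradients checked, 12 held a gradient far from the other 3, and chance gives about 1 in 20 groups. Among LPS+ET+KU gradients, pool LUL15 was apart for Hif1a (546 CPM against 375 to 389), Gm10717 (45.5 against 22 to 23.5) and mt-Nd6 (75 against 25.2 to 32.2), pool LUL16 for Rarg (16.1 against 65.2 to 73.3), Slc3a2 (2830 against 1198 to 1408), Ciita (74.8 against 33.9 to 39.8) and the summed T cell markers (367 against 111 to 141), and pool LUL17 for Serpinb1a (1.74 against 0.809 to 0.92). Among LPS gradients, pool LUL17 was apart for Ccbp2 (20.9 CPM against 8.32 to 10.3), Nr4a1 (28.9 against 64.8 to 67.9), mt-Nd6 (14.4 against 5.91 to 7.13) and Ppp1r13l (6.5 against 1.41 to 1.97). The pool LUL17 gradient of LPS includes the library with 32306 counts, and its part in these values was not tested.

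Gm10717 changed differently in heavy polysomes and in monosomes, by 6.47 on the log2 scale (limma, adjusted p = 0.0099), the only one of 9432 tested genes called in that comparison. Its monosome difference was -4.46 in fraction 4 and -0.21, -1.84 and -0.11 in fractions 5 to 7.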

How the results depend on the processing

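The number of genes called between LPS+ET+KU and LPS in heavy polysomes (1794, 1152 higher and 642 lower) depended on the processing, and the causes were not tested unless the setting names fewer samples or genes. Without the pool as replicate block it was 723 (529 and 194), without a count filter 1182 (761 and 421), in edgeR on summed counts without the block 901 (562 and 339), in DESeq2 on summed counts 2991 (1489 lower) and at an adjusted p under 0.05 3276 (2076 and 1200). TMM scaling gave 1075 lower and edgeR with the block 1161 lower. Leaving out each gradient gave 1003 to 1695 called (656 to 1083 higher, 321 to 679 lower), with 1005 and 1004 when pool LUL15 or LUL18 was dropped from LPS and 1003, 1025 and 1088 when pool LUL15, LUL17 or LUL18 was dropped from LPS+ET+KU. For the difference between heavy and monosome changes (1 gene), the count was 0 without the replicate block, with only the 8 compared gradients, with a pseudocount of 0.25 CPM and without a filter, 94 with 5 CPM, 173 with TMM, 45 without libraries under 100000 counts and 227 at an adjusted p under 0.05, and 0 to 29 leaving out each gradient (29 when pool LUL17 was dropped from LPS). Against LPS+ET (106 genes) it was 18 without the replicate block, 10 without a filter, 164 with a mean of at least 5 CPM, 294 without the shallow libraries, 356 in edgeR (57 without the block), 797 in DESeq2 and 696 at an adjusted p under 0.05, and 2 to 153 leaving out each gradient, the highest when pool LUL16 was dropped from LPS+ET. Within heavy polysomes 2 genes were called with 5 CPM and 2 at an adjusted p under 0.05. Of the 1693 alternatives for 77 named genes, 1523 kept their side of the threshold, 155 lost the call, 15 gained it and 0 changed sign. Calls were lost for 24 named genes without the block, 11 in edgeR and 4 with TMM. The medians of damage signalling and of plasma cell genes changed sign under TMM (-0.17 and -0.16) and edgeR (-0.28 and -0.04).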
